A study of Rattus norvegicus with 74 samples.

Results

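The miR-130 and miR-301 family was followed in whole rat kidney from 2 to 104 weeks of age. Its members were taken by name: every miRNA of the array called rno-miR-130a, rno-miR-130b, rno-miR-301a or rno-miR-301b, of either arm, that was detected on at least 1 array. The array carried 8 such names among its 677 miRNAs, and 5 of them were detected, among 311 miRNAs detected in all. The family was chosen by the measured age profile of rno-miR-130b-3p, which fell steeply on these same arrays, so that profile is described here without a test. The other members entered by their name and seed, and their changes were tested.

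The animals were untreated female and male rats of the inbred F344 strain, killed at 8 ages: 2, 5, 6 and 8 weeks, then 15, 21, 78 and 104 weeks. RNA of 74 rats was hybridized singly to 74 single-colour Agilent arrays. The 16 groups of age and sex held 4 or 5 rats, which limits how precisely any mean is known. Estrous stage was not matched among the females, by the study's methods. RNA came from ground whole kidney, in which fewer cells of a type and less of a miRNA per cell cannot be told apart.

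MicroRNAs are short RNAs that bind messenger RNAs mainly through their seed, the bases near the 5′ end, and lower the amount of protein made from them. MiRNAs with the same seed can bind many of the same targets. The kidneys of a rat go on forming and maturing after birth, and the earliest age here falls in that period. Members of the miR-130 and miR-301 family have been studied in growing tissues, in blood vessel cells and in fibrosis.

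The sequences show what the family shares and where its members differ. Mature sequences and positions are those of RefSeq on the GRCr8 assembly, printed 5′ to 3′ with the seed, bases 2 to 8, in capitals. RefSeq's table gave a mature sequence for 7 of the 8 names, and rno-miR-301a-3p is shown through its hairpin, with the same 7 bases in capitals.
rno-miR-130a-3p: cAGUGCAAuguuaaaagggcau
rno-miR-130b-3p: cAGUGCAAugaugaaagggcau
rno-miR-301b-3p: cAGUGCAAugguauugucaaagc
Mir301a hairpin: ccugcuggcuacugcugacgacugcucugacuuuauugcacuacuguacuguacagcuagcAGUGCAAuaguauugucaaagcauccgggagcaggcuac

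The seed AGUGCAA was held by 3 of the 693 mature miRNAs of that table (0.433%), all of them family members, and occurred 1 time in each of the 4 hairpins of the family. Over the 22 bases of rno-miR-130a-3p, rno-miR-130b-3p differed at 2 positions, U11A and A13G, counted from the 5′ end with the base of rno-miR-130a-3p first. Rno-miR-301b-3p differed from rno-miR-130b-3p at 10 of the same 22 positions, all of them outside the seed. Mir301b (chr11:97384033-97384110, plus strand) and Mir130b (chr11:97384380-97384461, plus strand) were 269 bases apart, both within the span of the protein-coding gene 2610318N02Rikl. Mir130a lay on chromosome 3 (chr3:90229228-90229315, minus strand) and overlapped Mir3590. The most alike pair of the 3 mature sequences, rno-miR-130a-3p and rno-miR-130b-3p, thus came from different chromosomes. Mir301a lay on chromosome 10 (chr10:72422599-72422698, plus strand), within the spans of Ska2 and Prr11.

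Levels are given as normalized intensity, which is the background-subtracted signal of a miRNA divided by the 75th percentile of its own array. The 75th percentile of an array lay between 81.2 and 283, so 1 unit of normalized intensity was a signal in that range. Probes differ in brightness, so levels were not compared between miRNAs. The arrays detected 190 to 264 miRNAs each (median 232), and 0 miRNA spots were saturated. The kidney tubule markers rno-miR-192-5p, rno-miR-194-5p and rno-miR-204-5p were detected on every array, while rno-miR-215 was detected on none. The 4 young ages, up to 8 weeks, were hybridized on 5 slides. The 4 later ages were on 5 different slides, with 1 array of a 15-week female as the exception. Both sexes shared slides. Differences among the first 4 ages were therefore measured within the same slides, while for differences between them and later ages slide and age can hardly be told apart.

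Detection set the members apart first. Rno-miR-130a-3p and rno-miR-301a-3p were detected on all 74 arrays. Rno-miR-130b-3p was detected on 49 arrays, which were all 36 arrays of the ages of 2 to 8 weeks, 12 of 19 arrays of older males and 1 of 19 arrays of older females. Its neighbour rno-miR-301b-3p was detected on 4 arrays, 2 of the 4 females and 2 of the 5 males of 2 weeks, with normalized intensities of 0.00830, 0.00939, 0.0122 and 0.0145. Those 4 values lay at or just above the lowest detected signal of their arrays (0.00779 to 0.0145). No array of a later age detected rno-miR-301b-3p. The passenger arm rno-miR-130b-5p was detected on 1 array, of a 2-week male, at 0.0125. Both members that came from chromosome 11 beside rno-miR-130b-3p were thus seen at 2 weeks only, on few arrays, and their values were too near background for a comparison of groups. Rno-miR-130a-5p, rno-miR-301a-5p and rno-miR-301b-5p were never detected.

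**Figure D1:**
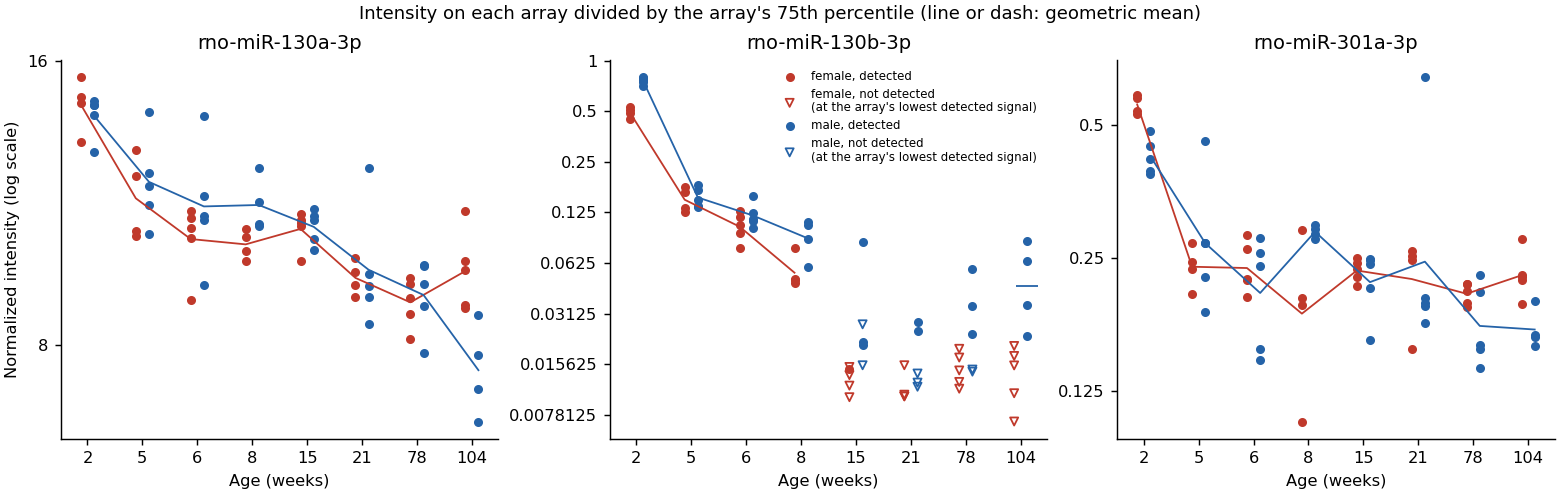
Normalized intensity of rno-miR-130a-3p, rno-miR-130b-3p and rno-miR-301a-3p (log axes, a different range in each panel) on every array against age in weeks, females in red and males in blue. Filled points are detected values, open triangles stand at the lowest detected signal of an array that did not detect the miRNA, and lines or dashes are geometric means of groups detected on all arrays; rno-miR-130b-3p left the detected range in most females after 8 weeks, while the other members were detected on all 74 arrays.

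Rno-miR-130b-3p was the member for which the family was picked. At 2 weeks the 4 females had normalized intensities of 0.452, 0.486, 0.510 and 0.530, and the 5 males had 0.710, 0.744, 0.771, 0.794 and 0.798. At 5 weeks the females had 0.126, 0.133, 0.166 and 0.177 and the males 0.135, 0.137, 0.148, 0.169 and 0.182. The lowest array of 2 weeks was thus well above the highest array of 5 weeks in either sex. At 6 weeks the females lay between 0.0764 and 0.128 and the males between 0.102 and 0.156. At 8 weeks the females had 0.0474, 0.0493, 0.050 and 0.0766 and the males 0.0590, 0.0872, 0.105 and 0.110. Every array of 8 weeks lay below every array of 5 weeks of the same sex.

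The geometric mean at 8 weeks was 11.1% of that at 2 weeks in females and 11.5% in males. On the log2 scale the changes from 2 to 8 weeks were -3.17 in females and -3.12 in males, of which -1.73 and -2.31 had taken place by 5 weeks. Among the miRNAs detected on all arrays of both ages, the change from 2 to 8 weeks was the lowest of 192 in females and ranked 2 of 186 in males. These values chose the family and are given as a description. The array had 2 probes for the miRNA, and the change from 2 to 8 weeks was -3.06 and -2.76 in females and -3.13 and -2.93 in males for the first and the second probe.

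After 8 weeks the sexes could be followed to different depths. In females, rno-miR-130b-3p was detected on 1 of 5 arrays at 15 weeks (0.0147) and on 0 arrays at 21, 78 and 104 weeks. The 15-week female array hybridized beside young animals was among those that did not detect it. The geometric mean of 2-week females was 28.9-fold, 28.2-fold and 27.9-fold above the bound at 21, 78 and 104 weeks. The bound on each array was its lowest detected signal of any miRNA or, where higher, the floor of 0.0171 to which lower values were raised in every test. It is a reference level and not a measured limit of an undetected signal. In males it was detected on 3 of 5 arrays at 15 weeks (0.0203, 0.0211 and 0.0836), on 2 of 5 at 21 weeks (0.0247 and 0.0278) and on 3 of 5 at 78 weeks (0.0235, 0.0345 and 0.0579). All 4 males of 104 weeks detected it, with 0.0228, 0.0351, 0.0641 and 0.0850. Their range overlapped that of 8-week males, and their geometric mean was 5.99% of that of 2-week males.

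Rno-miR-301a-3p, which shares the seed, was also highest at 2 weeks. The 4 females of 2 weeks had normalized intensities of 0.530, 0.538, 0.575 and 0.583, and the 5 males had 0.386, 0.393, 0.418, 0.448 and 0.485. At 5 weeks the females had 0.207, 0.236, 0.245 and 0.270 and the males 0.188, 0.226, 0.269, 0.270 and 0.460. At 8 weeks the females had 0.106, 0.195, 0.203 and 0.289 and the males 0.276, 0.284, 0.290 and 0.296. No female array of a later age reached the level of a 2-week female. In males the 2-week range was reached by 1 array of 5 weeks (0.460) and 1 array of 21 weeks (0.641). From 15 weeks on, the remaining arrays of either sex lay between 0.140 and 0.275, with no further step.

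The age effect of rno-miR-301a-3p was called in both sexes, with an adjusted p of 3.76e-07 in females and 0.000975 in males (limma's moderated F test over 8 ages within each sex, Benjamini-Hochberg over 311 miRNAs). A call required, beside an adjusted p below 0.05, that some pair of ages differed by 1.5-fold or more at an unadjusted p below 0.05 in limma's contrast. Of the 311 miRNAs, 36.7% met it in females and 45.3% in males. Against 2 weeks, rno-miR-301a-3p fell at 13 of 14 later ages of the sexes by at least 1.5-fold, while 14.1% of the tests of all 311 miRNAs in these 14 comparisons gave such a call. Of the 311, 166 were detected on all arrays, as this member was. The shares over all 311 thus include miRNAs that stood at the floor on some arrays. The differences lay between -1.57 and -1.22 on the log2 scale in females and between -1.30 and -0.57 in males. At 5 weeks the difference was -1.22 (SE 0.239, adjusted p = 2.87e-05) in females and -0.65 (SE 0.214, adjusted p = 0.0102) in males. At 8 weeks it was -1.57 (SE 0.239, adjusted p = 1.26e-07) in females, or 2.98-fold. In males of 8 weeks it was -0.57 (SE 0.227, adjusted p = 0.0357), which is 1.48-fold and missed the fold threshold. All these differences kept their sign under every scaling tried, and 5 of 14 were called with normexp background correction.

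Rno-miR-130a-3p, which differs from rno-miR-130b-3p at 2 bases, had a shallower profile. The 4 females of 2 weeks had normalized intensities of 13.1, 14.4, 14.7 and 15.4, and the 5 males had 12.8, 14.0, 14.4, 14.4 and 14.5. At 8 weeks the females had 9.84, 10.1, 10.4 and 10.6 and the males 10.7, 10.8, 11.4 and 12.3. At 104 weeks the females had 8.76, 8.83, 9.62, 9.82 and 11.1 and the males 6.65, 7.19, 7.82 and 8.62. At 8 and 104 weeks every array lay below every 2-week array of its sex, and the 104-week males were the lowest group of the series.

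Its age effect was called in both sexes (limma's moderated F test, adjusted p = 3.31e-08 in females and 9.72e-08 in males). All 14 differences from 2 weeks had an adjusted p under 0.05, with values between -0.69 and -0.33 in females and between -0.89 and -0.23 in males on the log2 scale. Over all 311 miRNAs, 22.1% of the tests in the same comparisons were lower at that adjusted p. Only 4 of the 14 reached 1.5-fold: the 21- and 78-week females (1.52-fold and 1.62-fold) and the 78- and 104-week males (1.55-fold and 1.86-fold). The 104-week females lay at the threshold, with a difference of -0.58 (adjusted p = 4.33e-08) that fell just short of it. The number called moved with the scaling, from 2 when the 75th percentile was taken over all 677 miRNAs to 8 with quantile normalization. With normexp, 2 were called and the differences of 5- and 15-week females changed sign (0.05 and 0.13, adjusted p = 0.881 and 0.599).

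**Figure D2:**
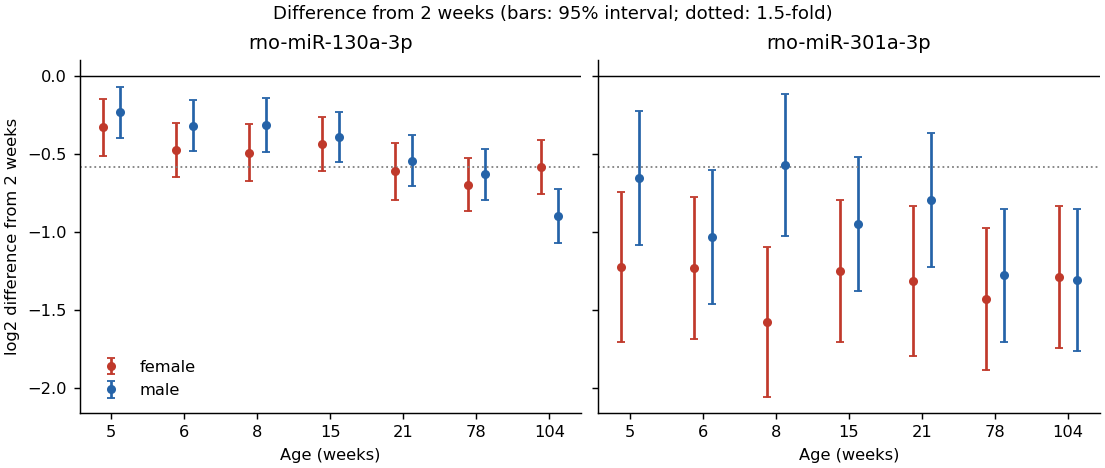
Difference from 2 weeks in the mean log2 normalized intensity of rno-miR-130a-3p and rno-miR-301a-3p at each later age in weeks, females in red and males in blue, with 95% intervals from limma; the dotted line marks 1.5-fold. All 28 points lie below 0, those of rno-miR-301a-3p between -1.57 and -0.57 and those of rno-miR-130a-3p between -0.89 and -0.23.

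Marker lists of other cell types also changed from 2 to 8 weeks. The summed normalized intensity of the kidney tubule markers was 10.6 to 13.1 at 2 weeks and 17.2 to 20.4 at 8 weeks in females, and 8.14 to 9.40 and 21.6 to 22.4 in males. The brightest markers weigh most in such a sum. The median log2 change over the 3 tubule markers tested was 0.57 in females and 1.29 in males. The leukocyte markers summed to 1.98 to 2.11 and 2.66 to 3.30 in females and to 1.67 to 1.84 and 2.58 to 3.34 in males. Their median log2 change over the 4 tested was 0.43 in females and 0.67 in males. The liver miRNA rno-miR-122-5p was called lower at 8 weeks in males (-3.97), with 0.397 to 23.6 in 2-week males, 0.0774 to 0.107 in 2-week females and 0.0486 to 0.211 at 8 weeks. Between 2 and 8 weeks 0 of 2 erythroid markers tested were called in either sex. The striated muscle markers summed to 0.245 to 0.349 at 2 weeks and 0.645 to 0.920 at 8 weeks in females. In males they summed to 0.196 to 0.272 and 0.548 to 0.609. The 1 neural marker tested was called lower in females (-0.64) and in males (-0.70), as were 12.5% and 14.8% of all miRNAs. The pancreas markers were not detected at these ages. The part of these lists in the age effects was not tested.

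Whether the age effects rested on the first weeks was examined within the ages that shared slides. Among 2 to 8 weeks, the effect of rno-miR-301a-3p was called in both sexes (adjusted p = 0.00031 in females and 0.00614 in males), beside 21.2% of the miRNAs in females and 30.2% in males. That of rno-miR-130a-3p passed the adjusted p (0.00047 and 0.0322) with a largest pair of 0.49 and 0.32 on the log2 scale, under 1.5-fold. Among 15 to 104 weeks neither was called, beside 7.4% of the miRNAs in females and 16.7% in males. There the adjusted p was 0.703 in females and 0.425 in males for rno-miR-301a-3p, and 0.0376 and 0.00662 for rno-miR-130a-3p, again with less than 1.5-fold between ages. From 21 to 104 weeks, rno-miR-130a-3p was lower in males by -0.35 (SE 0.0863, adjusted p = 0.000869), a 1.28-fold difference at an adjusted p that 25.1% of the miRNAs passed in that direction, and 0.02 higher in females (SE 0.0863, adjusted p = 1). For rno-miR-301a-3p the same differences were -0.51 in males (SE 0.227, adjusted p = 0.0799) and 0.03 in females (SE 0.227, adjusted p = 1). None of the 4 late differences was called, beside 14.8% of the miRNAs in males and 2.89% in females. Without replicate 4 of the 21-week males the late difference of rno-miR-301a-3p in males was called (-0.63, adjusted p = 0.0354), and without replicate 2 it was -0.16 (adjusted p = 0.659).

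The depth of the fall was then compared between the 2 members that were not picked for it, as the log2 of rno-miR-301a-3p minus the log2 of rno-miR-130a-3p on the same array, in which the array's scaling cancels. This difference reads only as a change between groups, since it holds the brightness of different probes. With both sexes together it was -4.89 ± 0.219 (SD, n = 9) at 2 weeks, against -5.54 ± 0.466 (SD, n = 8) at 8 weeks. The change was -0.65 (2-sided exact permutation test, p = 0.000288, over 24310 splits). Rno-miR-301a-3p thus fell more than rno-miR-130a-3p. From 2 to 5 weeks the change was -0.63 (exact permutation test, p = 0.000206). Within females it was -1.08 (exact permutation test, p = 0.0286, the smallest that 4 against 4 arrays allow), and within males -0.25 (exact permutation test, p = 0.0317). With normexp, the change turned to 0.12 (exact permutation test, p = 0.729).

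**Figure D3:**
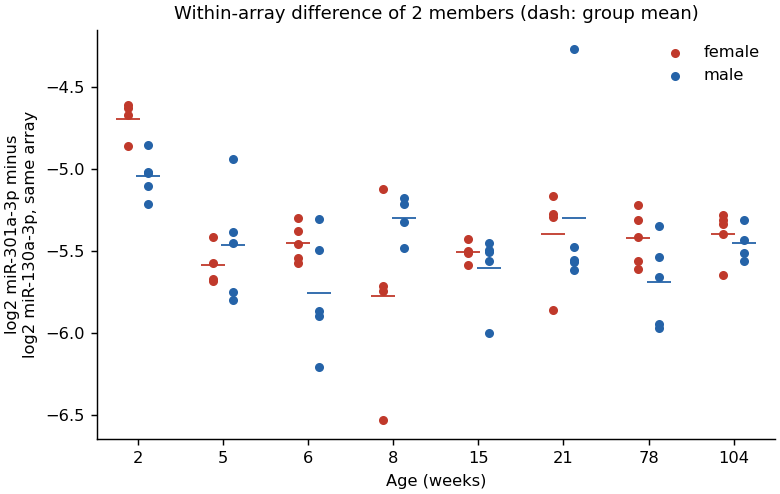
Log2 normalized intensity of rno-miR-301a-3p minus that of rno-miR-130a-3p on each array against age in weeks, females in red and males in blue, with group means as dashes. The 2-week arrays lie between -5.22 and -4.61 and the 8-week arrays between -6.53 and -5.12; 1 array of a 21-week male stands far above its group.

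The changes of the 3 members were then set side by side. From 2 to 8 weeks they stood at -3.17 for rno-miR-130b-3p, -1.57 for rno-miR-301a-3p and -0.49 for rno-miR-130a-3p in females, and at -3.12, -0.57 and -0.31 in males. Among the miRNAs detected on all arrays of both ages, rno-miR-301a-3p ranked 7 of 192 from the lowest change in females and 50 of 186 in males, and rno-miR-130a-3p ranked 47 and 69. The median change of all ranked miRNAs was -0.03 in females and -0.08 in males. Since rno-miR-130b-3p was picked for its fall, its difference from the others was not tested. The separate probes of a member gave like changes: -1.45 and -1.57 in females for rno-miR-301a-3p and -0.58 and -0.43 for rno-miR-130a-3p.

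The sexes were compared at each age, a comparison that the choice of the family did not use. Of the 24 sex differences of rno-miR-130a-3p, rno-miR-130b-3p and rno-miR-301a-3p, 1 was called, beside 3.34% of the tests of all miRNAs. It was that of rno-miR-130b-3p at 104 weeks, where 0 of 5 females and 4 of 4 males detected it. The geometric mean of these males was 2.58-fold above the bound of the females. On the floored log2 scale the difference was 1.42 (SE 0.283, adjusted p = 9.28e-05), and 6.11% of the 311 miRNAs were called between the sexes at that age (3.22% higher in males). That SE rests on a spread shared by all 16 groups, whereas the log2 SD was 0.85 in the 104-week males and 0 in the floored 104-week females. By the methods' t-test, which uses the spread of these 2 groups alone, the adjusted p of this difference was 0.0495. With normexp the sign of this difference turned (-0.10, adjusted p = 0.664). At 2 weeks the difference of rno-miR-130b-3p was 0.63 (95% interval 0.06 to 1.19, limma's adjusted p = 0.168), with 3.86% of the miRNAs called. This interval rests on the same shared spread, whereas the log2 SD at 2 weeks was 0.10 in females and 0.07 in males. By the methods' t-test the 2-week difference was called (adjusted p = 0.00318). The liver miRNA rno-miR-122-5p was called higher in the same males (3.50). The difference of rno-miR-130b-3p was 0.68 at 8 weeks (adjusted p = 0.267) and lay between 0.04 and 0.25 at 5, 6 and 21 weeks. From 15 weeks on, the female mean was at the floor, so that the male mean could not be lower. At 15 weeks the difference was 0.57 (adjusted p = 0.202), and 0.14 without replicate 2 of the males, whose array had 0.0836. At 78 weeks it was 0.65 (adjusted p = 0.0706), and 0.37 without replicate 6 of the males. With normexp the difference was also below 0 at 5, 8 and 78 weeks (-0.14, -0.24 and -0.14).

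Markers of leukocytes moved with the sex difference of 104 weeks. Of the 5 listed, 4 were on the array, namely rno-miR-142-3p, rno-miR-142-5p, rno-miR-150-5p and rno-miR-223-3p, and all 4 were called higher in 104-week males. Rno-miR-142-5p was detected on 10 of the 74 arrays, the other 3 on all. Their summed normalized intensity was 3.32 to 3.55 in the 104-week females and 5.56 to 7.67 in the 104-week males. At 78 weeks 3 of the 4 were called higher in males (3.54% of all miRNAs), and the sums were 2.57 to 3.49 in females and 4.04 to 7.10 in males. At 2 weeks 0 of 4 were called between the sexes, and the sums were lower in males (1.67 to 1.84) than in females (1.98 to 2.11), while rno-miR-130b-3p was higher in males. Of the 3 kidney tubule markers tested, 1 was called between the sexes at 104 weeks, beside 6.11% of all miRNAs. It was rno-miR-192-5p, lower in males (-0.65, SE 0.0837, limma's adjusted p = 1.66e-08), and the median over the 3 was -0.57. The part of either list in the result for rno-miR-130b-3p was not tested.

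For the other members no sex difference was called at any of the 8 ages. Rno-miR-130a-3p was lower in males at 104 weeks by -0.35 (SE 0.0863, adjusted p = 0.00147), or 1.27-fold, at an adjusted p that 13.5% of the miRNAs passed in that direction, and lay between -0.04 and 0.14 at the other ages. Rno-miR-301a-3p was lower in males at 2 weeks (-0.39, 95% interval -0.84 to 0.06, limma's adjusted p = 0.319). Its arrays of the sexes did not overlap there, but the share of all miRNAs without such overlap was not counted. This interval, too, uses the spread shared by all groups. The 2-week arrays themselves had log2 SDs of 0.07 (females) and 0.14 (males), while 21-week males had 0.78. The sex difference of rno-miR-301a-3p at 8 weeks had the opposite sign (0.62, 95% interval 0.14 to 1.10, adjusted p = 0.156). That value was 0.35 without replicate 2 of the females, whose array had 0.106. The intervals at both ages still hold differences of more than 1.5-fold.

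**Figure D4:**
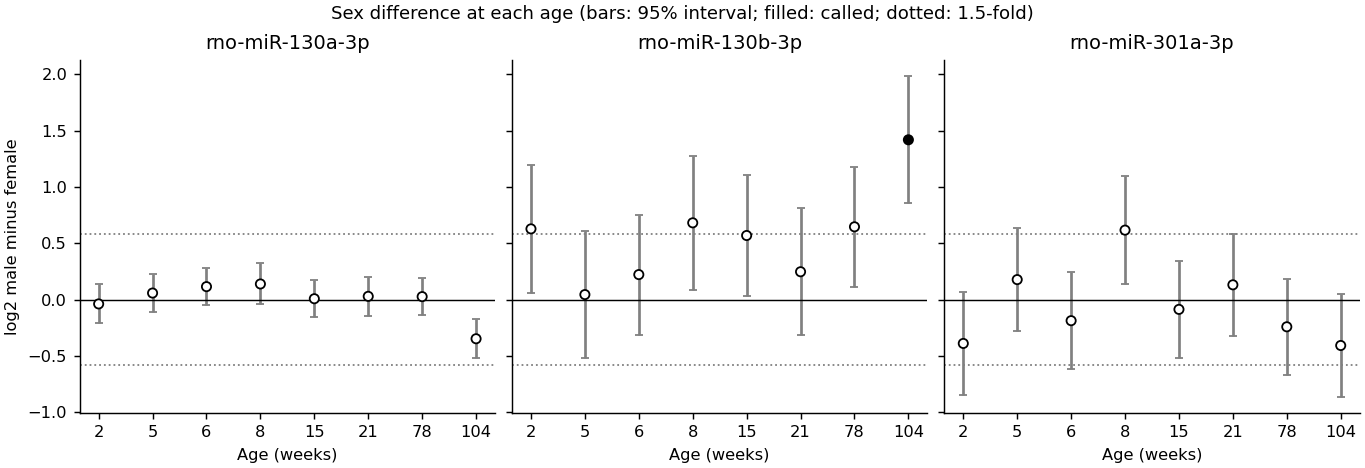
Male minus female difference of the mean log2 normalized intensity at each of the 8 ages in weeks for the 3 members detected on every array of 2 to 8 weeks, with 95% intervals from limma; filled points were called and dotted lines mark 1.5-fold. The 104-week difference of rno-miR-130b-3p, 1.42, is the only called point.

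Whether the age profile differed between the sexes was tested as an interaction of age and sex. It was called for rno-miR-130a-3p (limma's F test, adjusted p = 0.0307), as for 27.7% of the miRNAs, and this call was lost with the 75th percentile over miRNAs detected on all arrays (adjusted p = 0.475), with that over all miRNAs (0.437), with quantile normalization (0.131) and with normexp (0.706). The interaction was not called for rno-miR-130b-3p (adjusted p = 0.127) or rno-miR-301a-3p (adjusted p = 0.136). For rno-miR-130b-3p it was called with the floor set before scaling (adjusted p = 0.0136) and with quantile normalization (0.00562).

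Animals of 1 age and sex were compared to see whether members varied together. After each group's mean was removed, rno-miR-130a-3p and rno-miR-301a-3p correlated over the 74 arrays (Pearson r = 0.61, permutation p = 2e-05, adjusted over 3 pairs 6e-05; Spearman rho = 0.51, permutation p = 3e-05, adjusted 9e-05). Without the 2 arrays farthest from the median of rno-miR-130a-3p, r was 0.52. With slide means also removed it was 0.71. The array with the largest deviation in both was replicate 2 of the 21-week males, with 12.3 for rno-miR-130a-3p and 0.641 for rno-miR-301a-3p. Rno-miR-130b-3p did not correlate detectably with rno-miR-130a-3p (r = 0.11, rho = 0.19, adjusted permutation p = 0.372 and 0.20) or with rno-miR-301a-3p (r = 0.12, rho = 0.17, adjusted permutation p = 0.372 and 0.20). With the 75th percentile over miRNAs detected on all arrays, the adjusted p passed 0.05 for the first pair (r = 0.29, rho = 0.43) and, for the second, by rho alone (r = 0.20, adjusted permutation p = 0.055, and rho = 0.32, adjusted permutation p = 0.0114). Those 2 correlations included the 25 arrays on which rno-miR-130b-3p was not detected. Over the 36 arrays of 2 to 8 weeks, where all 3 members were detected, r between rno-miR-130a-3p and rno-miR-130b-3p was 0.51 (adjusted permutation p = 0.00525), rho was 0.59 (adjusted permutation p = 0.00432), and r without the 2 farthest arrays was 0.47. Over the same arrays r between rno-miR-130b-3p and rno-miR-301a-3p was 0.16 (adjusted permutation p = 0.447). That choice of ages was made after seeing the data. All members of an array share its 75th percentile, which enters every one of these values.

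**Figure D5:**
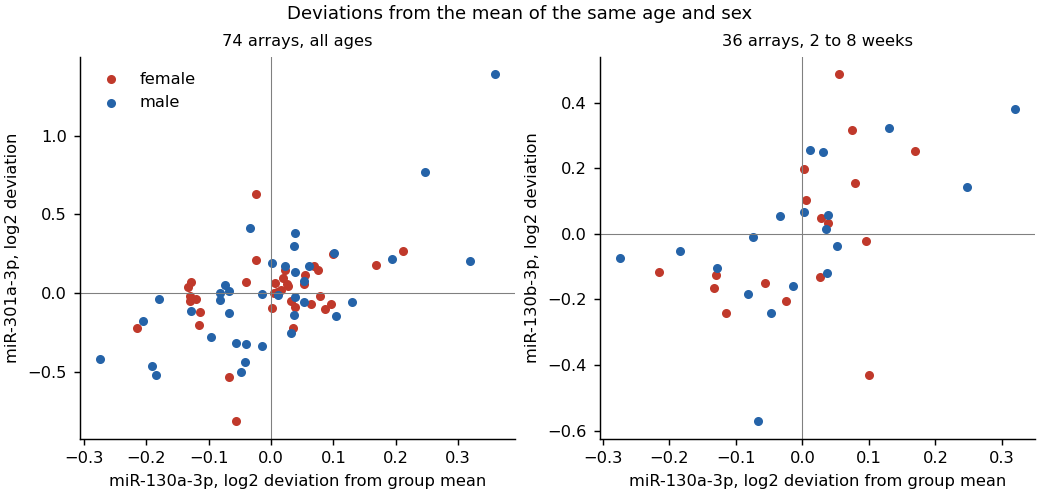
Deviation of each array from the mean log2 normalized intensity of its age and sex, rno-miR-130a-3p on the x axis against rno-miR-301a-3p over 74 arrays (left) and against rno-miR-130b-3p over the 36 arrays of 2 to 8 weeks (right), females in red and males in blue. Points run from lower left to upper right in both panels (r = 0.61 and 0.51).

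MiRNAs whose seed overlaps that of the family with a shift of 1 base were followed beside it. MiR-19a and miR-19b belong to the miR-17-92 group, known for promoting cell proliferation, and miR-148b and miR-152 form a family of their own. Their RefSeq sequences are printed with bases 2 to 8 in capitals, so that the shift against AGUGCAA can be read.
rno-miR-19b-3p: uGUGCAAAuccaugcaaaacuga
rno-miR-152-3p: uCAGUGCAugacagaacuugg

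Of the 5 listed names, 4 were on the array and were detected. From 2 to 8 weeks, 3 of the 4 were called lower in females and 0 of 4 in males, beside 12.5% and 14.8% of all miRNAs. Their medians were -0.82 and -0.33 on the log2 scale, beside a median of 0 over all 311. Over the miRNAs detected on all arrays of both ages, the median was -0.03 in females and -0.08 in males. The 3 called in females were rno-miR-19a-3p (-1.68, SE 0.452, adjusted p = 0.00205), rno-miR-19b-3p (-0.91, SE 0.196, adjusted p = 0.000106) and rno-miR-152-3p (-0.74, SE 0.146, adjusted p = 2.48e-05). In males the values of the same 3 were -0.19, -0.46 and -0.57. Rno-miR-148b-3p moved the other way, by 0.32 in females (adjusted p = 0.0325) and 0.41 in males (adjusted p = 0.00176), under 1.5-fold. Over all 8 ages an age effect was called for rno-miR-19b-3p and rno-miR-152-3p in females and for rno-miR-152-3p in males. Of all 311 miRNAs, 36.7% had such a call in females and 45.3% in males. No member of this list was called between the sexes at any age, beside 3.34% of the tests of all miRNAs. None was called for the interaction, beside 27.7% of all miRNAs.

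The profiles most like those of the members were found by the Pearson correlation of the 16 group means on the log2 scale, over 206 other miRNAs detected on all arrays of at least 8 groups. The correlations are given as a description. For rno-miR-130b-3p the closest were rno-miR-15b-5p (r = 0.97), rno-miR-542-5p (r = 0.97) and rno-miR-363-3p (r = 0.95). The mean log2 level of rno-miR-542-5p went from -1.20 at 2 weeks to -2.97 at 8 weeks and -3.82 at 104 weeks in females, and that of rno-miR-363-3p from -1.21 to -3.38 and -4.49. Rno-miR-15b-5p had the same shape over a smaller span, from 2.79 to 2.20 and 1.89. For rno-miR-130a-3p the closest were rno-miR-181c-5p (r = 0.94), rno-miR-196a-5p (r = 0.93) and rno-miR-196c-5p (r = 0.92), and for rno-miR-301a-3p they were rno-miR-126a-3p (r = 0.92), rno-miR-152-3p (r = 0.91) and rno-miR-106b-5p (r = 0.91). No member was among the 3 closest of another member: r was 0.85 between rno-miR-130a-3p and rno-miR-301a-3p, 0.79 between rno-miR-130a-3p and rno-miR-130b-3p, and 0.73 between rno-miR-130b-3p and rno-miR-301a-3p. The members ranked between 14 and 38 of 206 for each other. For rno-miR-130b-3p the means of females from 15 weeks on were at the floor, which enters its correlations.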

How the data were processed

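The authors hybridized kidney RNA of single rats to 74 Agilent arrays and deposited the scanner's output of Agilent Feature Extraction 10.7.3.1. Per the file headers, its values are background-subtracted intensities, combined over the 20 spots (2 probes) of a miRNA into a total gene signal and not normalized between arrays. An undetected miRNA has 0.1. The deposited matrix of normalized values was not used.

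Signals were scaled by dividing by their array's 75th percentile, taken over the 311 miRNAs that any array detected. Values below 0.0171 (the lowest detected signal, 1.39, over the smallest 75th percentile, 81.2) were raised to it, and log2 was taken. Limma 3.58.1 in R 4.3.3 was fitted to all 311 miRNAs with 16 group means (58 residual degrees of freedom), and within each sex for the age effect. P-values were adjusted over 311 by Benjamini-Hochberg. A call needed an adjusted p under 0.05 and at least 1.5-fold, and an interaction the adjusted p alone. For the age effect, a pair of ages had to reach that fold at an unadjusted p under 0.05 in limma's contrast. Permutation tests were run in Python with scipy 1.17.1. The limma step was tested on simulated data. Alternatives were other floors, scalings, filters and tests, normexp background correction (offset 50), blocks for slide, replicate number and scan day, and each array left out. The members, lists and tests were chosen with earlier results of these data known, and the scan-day block and the correlation at 2 to 8 weeks were added after seeing the data. Named miRNAs were the family, the overlapping-seed list, the 3 most similar profiles of each member and markers that moved with a result. Marker lists covered kidney tubule, leukocytes, erythroid cells, striated muscle, liver, pancreas and neural cells. Mature sequences were matched by name to RefSeq's table (615 of 677).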

Additional observations from a re-analysis of the deposited data

Results flagged for a closer look

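Dixon's test was applied to the 41 sets of a member, an age and a sex in which every array detected the member, and 5 values on 4 arrays stood apart from their group, where chance flags about 1 in 20 groups. Replicate 2 of the 21-week males stood above its group for both rno-miR-130a-3p (12.3, others 8.42 to 9.53) and rno-miR-301a-3p (0.641, others 0.178 to 0.202). Replicate 2 of the 15-week females was low for rno-miR-130a-3p (9.82, others 10.7 to 11.0). Replicate 4 of the 21-week females was low for rno-miR-301a-3p (0.155, others 0.247 to 0.259). Replicate 4 of the 8-week females was high for rno-miR-130b-3p (0.0766, others 0.0474 to 0.050). The age profile of rno-miR-130a-3p differed between the sexes by limma's interaction test (adjusted p = 0.0307). That call was lost under 4 of 5 other scalings and background corrections.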

How the results depend on the processing

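With normexp on median spot signals (offset 50), the change of rno-miR-130b-3p from 2 to 8 weeks was -0.63 in females and -1.08 in males. Its 104-week sex difference was -0.10, and the change of rno-miR-301a-3p minus rno-miR-130a-3p was 0.12. Of 28 differences from 2 weeks, 7 were called (5 for rno-miR-301a-3p, 2 for rno-miR-130a-3p). An offset of 50 compresses low signals, and its part in these values was not tested. The within-array difference of rno-miR-301a-3p and rno-miR-130a-3p also scattered more with normexp. Its SD was 0.792 at 2 weeks and 1.15 at 8 weeks, against 0.219 and 0.466 without normexp. The calls of rno-miR-130a-3p against 2 weeks, 4 of 14, became 7 with the 75th percentile over miRNAs detected on all arrays, 2 with that over all miRNAs and 8 with quantile normalization. Of 4 age effects, 2 were called among 2 to 8 weeks and 0 among 15 to 104 weeks. Sex differences called were 1 of 24, and 2 with the floor before scaling, with the methods' t-test, with all 677 miRNAs tested and with slide as a random block, 3 with quantile normalization and 0 with normexp, and every added call was of rno-miR-130b-3p, at 2, 15 or 78 weeks. By the methods' t-test the 2-week difference of rno-miR-130b-3p was called (adjusted p = 0.00318), and its 104-week difference stayed called close to the threshold (adjusted p = 0.0495). Of 3 interactions 1 was called, 2 with the floor before scaling, and 0 with the percentile over miRNAs detected on all arrays, with that over all miRNAs and with normexp. The correlation of rno-miR-130a-3p and rno-miR-130b-3p was 0.29 with the percentile over miRNAs detected on all arrays and 0.51 at 2 to 8 weeks, with an adjusted p of 0.00661 and 0.00525. The floor before scaling moved the median of all miRNAs from 2 to 8 weeks in males by 0.14.

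With each array left out in turn, 4 of 4 age effects stayed called, 16 to 18 of the 28 differences from 2 weeks were called (3 to 5 for rno-miR-130a-3p and 12 to 14 for rno-miR-301a-3p), and 0 to 1 late differences, 1 to 2 sex differences and 0 to 2 interactions. The 104-week sex difference of rno-miR-130b-3p lay between 1.12 and 1.75. The change of rno-miR-301a-3p minus rno-miR-130a-3p lay between -0.71 and -0.51, and the change of rno-miR-130b-3p from 2 to 8 weeks between -3.34 and -3.11 in females and -3.23 and -2.93 in males. The sex difference of rno-miR-130b-3p at 78 weeks was called without replicate 2 of the 15-week males or replicate 3 or 4 of the 78-week males. The interaction of rno-miR-130a-3p was called in 69 of 74 such fits, and was lost without replicate 2, 3 or 4 of the 104-week females or replicate 1 or 6 of the 104-week males. With slide as a fixed block, rno-miR-301a-3p lost its calls against 2 weeks in males of 15 weeks (-0.95, adjusted p = 0.128) and 21 weeks (-0.80, adjusted p = 0.192). In that fit the age effect of males could not be fitted, since their ages share no slide across 8 and 15 weeks.

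The labels do not say whether replicate numbers pair animals. Over 28 same-numbered pairs of an age, deviations of females and males correlated at a median of -0.02 (range -0.72 to 0.74), and 10 pairs exceeded 0.1. Pairs with other numbers had a median of 0.02. These medians cannot show that no animals were paired. With a replicate block 4 age effects, 1 sex difference (1.37 for rno-miR-130b-3p at 104 weeks) and 1 interaction were called. The block added the calls of rno-miR-301a-3p in 8-week males (-0.62, adjusted p = 0.0298) and rno-miR-130a-3p in 104-week females (-0.62, adjusted p = 8.64e-09).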
